A study of Mus musculus with 6 samples.

Results

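The Tsc22d family comprises 4 mouse genes, Tsc22d1, Tsc22d2, Tsc22d3 and Tsc22d4, which were taken from the table of 22602 genes by symbol. All 4 passed the filter on low values, a mean of at least 1 RPKM (reads scaled to cDNA length in kilobases and to library depth), as did 11595 genes in all. They were chosen with earlier results of these libraries known, one of which is that Tsc22d1 lies in a stretch of chromosome 14 where many genes were higher in the Sim2 expressing clones, so their own differences between the groups are given below as a description, with no p-value.

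The family encodes leucine zipper proteins that share a conserved region, the TSC box, next to the zipper. They form dimers with each other and act through partner proteins. Tsc22d1 was found as a transcript induced by TGF-beta, and Tsc22d3, also called GILZ, as a glucocorticoid-induced leucine zipper that is also a target of FOXO factors. The long forms of the family bind the pseudokinase NRBP1 and work with the WNK kinases that regulate cell volume and ion transport.

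The 6 libraries were made from mouse embryonic stem (ES) cells. Clones A6, B8 and C4 each carry a construct at the ROSA26 locus with a Flag-tagged mouse Sim2 gene and a Venus reporter, driven by the hCMV*-1 promoter, which is switched on when tetracycline is removed. Each clone is a different line and was sequenced once. The controls are 3 cultures, EB3-0, EB3-1 and EB3-2, of the EBRTcH3 (EB3) parental line, which responds to tetracycline in the same way but has no Sim2 transgene. All 6 cultures were kept free of tetracycline for 26 h. The comparison asks which mRNA levels differ in cells that express SIM2, a bHLH-PAS transcription factor. None of these libraries is of a clone kept in tetracycline, so SIM2 expression and derivation of the clones cannot be told apart. The p-values measure the spread between 3 clones and between cultures of 1 line. In such bulk RNA, fewer cells of a kind and less RNA per cell cannot be told apart.

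The labels and the cell type were first checked. Sim2 was at 168 to 212 RPKM in the clones and at 0.0917 to 0.130 RPKM in EB3, while Arnt, which encodes its dimer partner, was at 17.8 to 21.0 RPKM in all libraries. All 6 ES cell markers, Pou5f1 among them, were expressed (summed level 2906 to 3124 RPKM in the clones and 3079 to 3412 RPKM in EB3). The 5 neural markers, mostly Tubb3, summed to 78.6 to 101 RPKM in the clones and to 122 to 139 RPKM in EB3. The summed levels of the 7 fibroblast markers, mostly Thy1, were low in both groups (10.7 to 13.8 and 10.1 to 13.3 RPKM). So were those of the 6 endoderm markers (3.52 to 4.22 and 2.29 to 2.64 RPKM) and 4 mesoderm markers (2.38 to 2.74 and 1.72 to 2.27 RPKM). Of all these markers 2, both of fibroblasts, were at 0 in every library. Their part in the values of the Tsc22d genes was not tested. Reads worked back from the RPKM values and summed over the listed genes ranged from 25095861 to 28269340 per library. EB3-0 stood apart from the other cultures: reads per gene differed between EB3-0 and EB3-1 by a chi-square of 78.4 on average, but between EB3-1 and EB3-2 by 2.78, against 12.4 to 40.4 among the clones. EB3-1 and EB3-2 were therefore also averaged and counted as 1 library.

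The family is defined by a stretch of sequence that can be read in the coding sequence itself. A window of 40 codons was found in the annotated long form of each gene, without gaps, and is shown to let the members be compared where they are most alike. Capitals mark the 73 of 120 bases that are the same in all 4 genes.
Tsc22d1: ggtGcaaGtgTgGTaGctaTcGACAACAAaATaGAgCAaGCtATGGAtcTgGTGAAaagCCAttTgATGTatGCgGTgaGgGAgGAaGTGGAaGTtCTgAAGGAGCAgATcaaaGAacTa
Tsc22d2: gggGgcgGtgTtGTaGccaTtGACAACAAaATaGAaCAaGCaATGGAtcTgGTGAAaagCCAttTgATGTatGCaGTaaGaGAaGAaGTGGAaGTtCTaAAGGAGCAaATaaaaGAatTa
Tsc22d3: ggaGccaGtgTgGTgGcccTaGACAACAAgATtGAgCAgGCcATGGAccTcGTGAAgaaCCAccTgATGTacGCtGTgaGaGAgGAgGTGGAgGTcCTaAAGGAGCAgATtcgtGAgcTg
Tsc22d4: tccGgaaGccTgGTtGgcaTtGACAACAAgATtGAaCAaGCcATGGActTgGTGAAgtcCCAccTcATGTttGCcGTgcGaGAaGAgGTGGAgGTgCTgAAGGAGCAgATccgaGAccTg

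In build mm9 this window lies at chr14:76905060-76906298 on the plus strand for Tsc22d1, across exons 2 and 3 of 3, and at chr3:58263260-58264004 on the plus strand for Tsc22d2, across exons 3 and 4 of 4. It lies at chrX:137075572-137076688 on the minus strand for Tsc22d3, across exons 3 and 4 of 4, and at chr5:138199916-138200369 on the plus strand for Tsc22d4, across exons 4 and 5 of 5. It begins at codon 978 of 1077 in Tsc22d1, 669 of 769 in Tsc22d2, 108 of 201 in Tsc22d3 and 304 of 387 in Tsc22d4, so the members differ most in the length of what precedes it. Tsc22d1 and Tsc22d2 were the most alike pair, with 85.8% of the bases identical, and Tsc22d2 and Tsc22d4 the least alike, with 70.0%. The longest identical run between any pair within the window was 32 bases, shorter than the reads of 100 bases.

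Sequence outside the family members bears on 2 of the values. The mm9 genome holds 1 further stretch alike to a Tsc22d1 transcript over at least 100 bases at 90% identity or more, 233 bases at 92.3% in an intron of Cadps2 (chr6:23275588-23275818). It also holds 1 such stretch for Tsc22d3, 1318 bases at 92.3% in the pseudogene Gm8812 (chr1:66109320-66110621), and 0 for Tsc22d2 and Tsc22d4. The values of Tsc22d1 and, more so given its low level, of Tsc22d3 are uncertain to the extent that such reads were shared.

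Each RPKM value covers all forms of a gene that use the listed exons. The listed cDNA of Tsc22d1 (chr14:76815628-76907573, 4588 bases) matched the annotated long form to within 4 bases. A short form, whose own start lies within the gene, shares 1395 of its 1727 bases with that model, or 30.4% of the model. The listed cDNA of Tsc22d3 (chrX:137074068-137135061, 2148 bases) was matched by a long form joined to the last exon of a shorter form. That shorter form shares 75.9% of this joined model. The listed cDNAs of Tsc22d2 (chr3:58219611-58270709, 8829 bases) and Tsc22d4 (chr5:138187224-138200975, 2322 bases) followed 1 annotated form each within the listed ends, and other forms share 22.4% and 70.0% of them. Long and short forms are therefore not told apart in any of the values below.

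Promoter windows of RefSeq (GRCm38.p6, 250 bases before to 50 after a start) were held for 2 of the 4 genes, Tsc22d1 with 5 starts and Tsc22d3 with 3. Each matched mm9 without a mismatch at 1 place, which gave the positions below. The Tsc22d1 windows are shown for the 2 starts that match the long and short forms described above, without the bases that fall in exons. The forms of the other Tsc22d1 starts were not compared with the counted exons. Capitals mark the matches to the motifs searched on both strands. The motif ACGTG is the core read by bHLH-PAS dimers with ARNT, and TACGTG is a longer version of it. The E-box is CACGTG, which overlaps that core. A half-site of the glucocorticoid receptor is AGAACA, a site of FOXO factors is TGTTTAC, and the TATA box was searched as TATAAA.
Tsc22d1 long form, chr14:76815525-76815627, plus strand: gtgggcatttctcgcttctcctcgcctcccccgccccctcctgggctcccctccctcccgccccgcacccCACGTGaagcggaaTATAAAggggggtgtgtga
Tsc22d1 short form, chr14:76904101-76904316, plus strand: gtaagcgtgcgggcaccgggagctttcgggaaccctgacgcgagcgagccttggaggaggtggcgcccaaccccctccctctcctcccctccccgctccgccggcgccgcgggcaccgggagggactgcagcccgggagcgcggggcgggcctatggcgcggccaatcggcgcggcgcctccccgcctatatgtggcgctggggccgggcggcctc

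The window of the long form held CACGTG, as 7.15% of all 32851 windows did, and TATAAA, as 13.6% did. The window of the short form held none of these letters. Of the 8 windows of both genes, ACGTG was in 1 (19.6% of all windows), AGAACA in 2 (19.0%), and TACGTG (3.23%) and TGTTTAC (3.65%) in 0. AGAACA was in 1 window of Tsc22d1 and in the window of the listed start of Tsc22d3. These are descriptions of letters and not of bound sites.

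The 4 genes stood in the same order of level in 6 of 6 libraries, Tsc22d1 above Tsc22d4, Tsc22d2 and Tsc22d3, on the RPKM scale, which is per length. The lowest Tsc22d1 level, 72.2 RPKM, was above the highest Tsc22d4 level, 27.5 RPKM, and the ratio of the 2 genes within a library was 3.99 to 5.25. Tsc22d4 was 2.94 to 6.21 times Tsc22d2, and Tsc22d2 1.28 to 7.01 times Tsc22d3. No neighbours in the order overlapped over the 6 libraries, although Tsc22d2 at 2.98 RPKM and Tsc22d3 at 2.34 RPKM came close to each other in EB3-0. Tsc22d1 ranked at the 92.6th percentile of the tested genes by mean level and Tsc22d3 at the 6.27th.

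**Figure D1:**
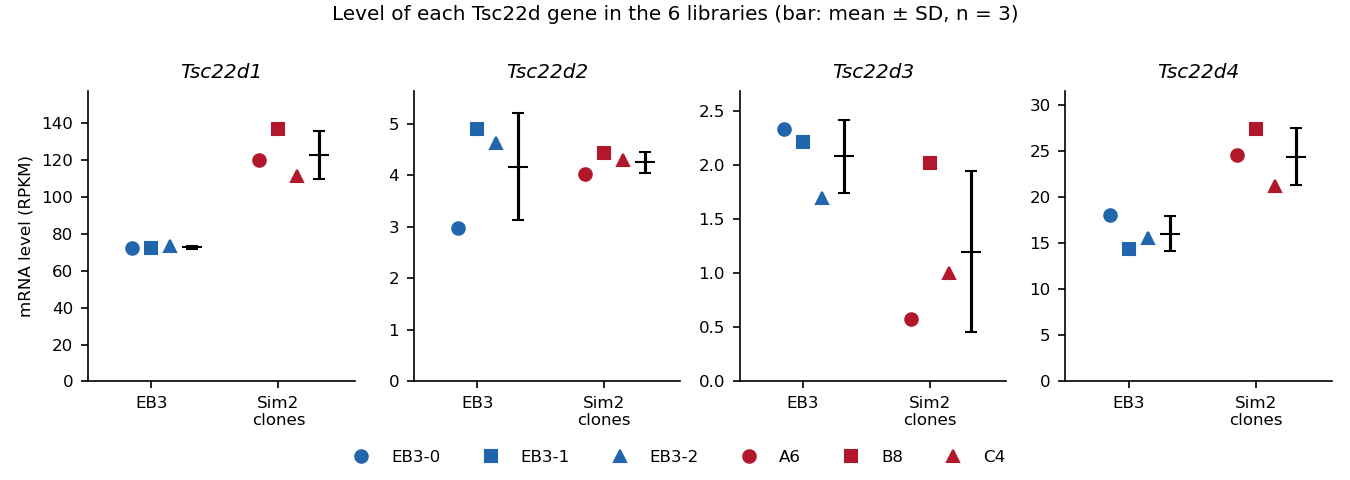
mRNA level in RPKM of Tsc22d1, Tsc22d2, Tsc22d3 and Tsc22d4 (1 panel each, axes from 0) in the 3 EB3 cultures (blue) and the 3 Sim2 expressing clones (red), with the mean ± SD of each group beside the points. The groups do not overlap for Tsc22d1 (111.6 to 137.0 against 72.2 to 73.3 RPKM) and Tsc22d4 (21.2 to 27.5 against 14.4 to 18.1 RPKM), and overlap for the other genes.

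Clones A6, B8 and C4 held 119.8, 137.0 and 111.6 RPKM of Tsc22d1, and cultures EB3-0, EB3-1 and EB3-2 held 72.3, 72.2 and 73.3 RPKM. All 3 clones were above all 3 controls, which lay close together. The means were 122.8 ± 13.0 and 72.6 ± 0.625 RPKM (SD, n = 3 each), from 8782 to 16195 reads per library. The difference was 0.75 ± 0.10 (SE) on the log2(RPKM + 0.5) scale, or 1.69-fold between the group means. The limma fit over all genes (adjusted p under 0.05) called 81 of 11595 tested genes (0.699%), 40 higher (0.345%) and 41 lower (0.354%), among them 1 of the 4 members, Tsc22d1. As this contrast was used to choose the genes, nothing is read from that count. Tsc22d1 was not called with no filter on low values, with EB3-1 and EB3-2 averaged, or with A6, B8, C4, EB3-1 or EB3-2 left out, while the difference itself stayed between 0.67 and 0.81.

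Tsc22d4, whose protein binds AKT1 and which has been linked to insulin signalling and lipid metabolism, stood at 24.6, 27.5 and 21.2 RPKM in the 3 clones (A6, B8, C4) and at 18.1, 14.4 and 15.6 RPKM in the EB3 cultures. The clones again lay above the controls, by a smaller margin between C4 and EB3-0. The means were 24.4 ± 3.12 and 16.1 ± 1.89 RPKM (SD, n = 3 each), and the difference was 0.59 ± 0.13 (SE) on the log2(RPKM + 0.5) scale. Without EB3-0 it was 0.68. Groups did not overlap for 2 of the 4 members, both higher in the clones, as for 26.1% of all tested genes (12.7% with the clones higher and 13.4% with the clones lower), and nothing is read from this count either.

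Tsc22d2, a little studied member with the longest cDNA, was at 4.03, 4.42 and 4.30 RPKM in A6, B8 and C4 and at 2.98, 4.90 and 4.62 RPKM in the EB3 cultures. The clones lay within the range of the controls, whose spread came from EB3-0. The means were 4.25 ± 0.200 and 4.17 ± 1.03 RPKM (SD, n = 3 each), and the difference was 0.05 ± 0.19 (SE) on the log2(RPKM + 0.5) scale. Its sign turned without EB3-0, to -0.15 ± 0.11, and with the trend on cDNA length removed, to -0.10 ± 0.11.

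Tsc22d3, whose protein binds NF-kB and AP-1 and mediates part of the anti-inflammatory action of glucocorticoids, stood at 0.575, 2.02 and 1.00 RPKM in the 3 clones (A6, B8, C4), from 31, 112 and 61 reads. It was at 2.34, 2.21 and 1.69 RPKM in the EB3 cultures, from 137, 127 and 95 reads. A6 and C4 were below all controls and B8 was within their range. The means were 1.20 ± 0.744 and 2.08 ± 0.340 RPKM (SD, n = 3 each), and the difference was -0.68 ± 0.30 (SE) on the log2(RPKM + 0.5) scale. It was -1.01 without B8 and -0.40 without A6, so its size depended on these clones.

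B8 was the highest of the clones for 4 of the 4 genes. The same share over all tested genes was not computed, so nothing is read from this count. Against the EB3 mean on the log2(RPKM + 0.5) scale, the values of A6, B8 and C4 were 0.72, 0.91 and 0.62 for Tsc22d1 and 0.61, 0.76 and 0.40 for Tsc22d4. They were -0.02, 0.10 and 0.07 for Tsc22d2 and -1.25, -0.02 and -0.77 for Tsc22d3. In no clone did all 4 members lie on the same side of the EB3 mean.

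Taken as a sum, the family was at 138 to 171 RPKM in the clones (153 ± 16.7, SD, n = 3) and at 93.8 to 95.7 RPKM in EB3 (94.9 ± 1.04, SD, n = 3). Tsc22d1 made up 80.5% ± 0.317 of this sum in the clones and 76.5% ± 0.865 in EB3 (SD, n = 3 each), and its share was higher in each clone (80.2 to 80.8%) than in any control (75.5 to 77.0%). The share of Tsc22d4 was 16.0% ± 0.569 and 16.9% ± 1.83. Those of Tsc22d2 (2.80% ± 0.274 and 4.40% ± 1.13) and Tsc22d3 (0.766% ± 0.400 and 2.19% ± 0.361) were lower in the clones on average, and the Tsc22d2 ranges met at 3.11% in C4 and 3.12% in EB3-0. Shares of a sum are bound to each other, so that a higher share of Tsc22d1 lowers the rest.

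The genes around each member were described next. Those around Tsc22d1 belong to the stretch of chromosome 14 whose shift was known when the family was chosen, so their values are a description and not independent of that choice. For each member the 10 nearest tested genes on each side were taken, and each clone was set against the EB3 mean. On the log2(RPKM + 0.5) scale the 20 neighbours of Tsc22d1 had medians of 0.47, 0.53 and 0.41 in clones A6, B8 and C4, and 19, 19 and 18 of the 20 were above 0 in the clones. The same median, for each EB3 culture against the other cultures, was -0.12, 0.03 and 0.08.

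Over the 3 clones the median of the Tsc22d1 neighbours was 0.45, across 4.45 Mb of chromosome 14 (chr14:75154480-79602117), against -0.01 over all tested genes. It was 0.22 with no filter on low values and 0.30 with 5 genes on each side. Of the 20 neighbours 10 did not overlap between groups, all higher in the clones, where 26.1% of all tested genes did not overlap (12.7% with the clones higher). In the limma fit 1 neighbour was called, where 0.699% of all tested genes were, and nothing is read from these counts since the stretch was known to be shifted. It was Zc3h13, which encodes a component of the RNA methylation complex, with means of 42.7 ± 2.02 and 27.6 ± 2.67 RPKM (SD, n = 3 each, difference 0.62 ± 0.10). Zc3h13 lost the call under the same alternatives as Tsc22d1. For the same reason no p-value is given for genes of this stretch. Tpt1, Tpt1p and Snora31 among the neighbours are listed at the same place and may share reads.

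Tsc22d1 ranked at 3 among the 21 genes of its own neighbourhood, behind Slc25a30, a mitochondrial carrier (0.94 ± 0.20), and Dgkh, a diacylglycerol kinase (0.83 ± 0.24). It stood above the median of its neighbours by 0.25, 0.38 and 0.20 in the 3 clones (A6, B8, C4). The nearest tested genes moved less and overlapped between groups. Nufip1, on the left, was at 47.9 ± 5.35 and 38.8 ± 4.92 RPKM (0.30 ± 0.12). Serp2, on the right, was at 2.46 ± 1.28 and 1.82 ± 0.598 RPKM (0.29 ± 0.33). The difference of Tsc22d1 from its neighbours was not tested.

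**Figure D2:**
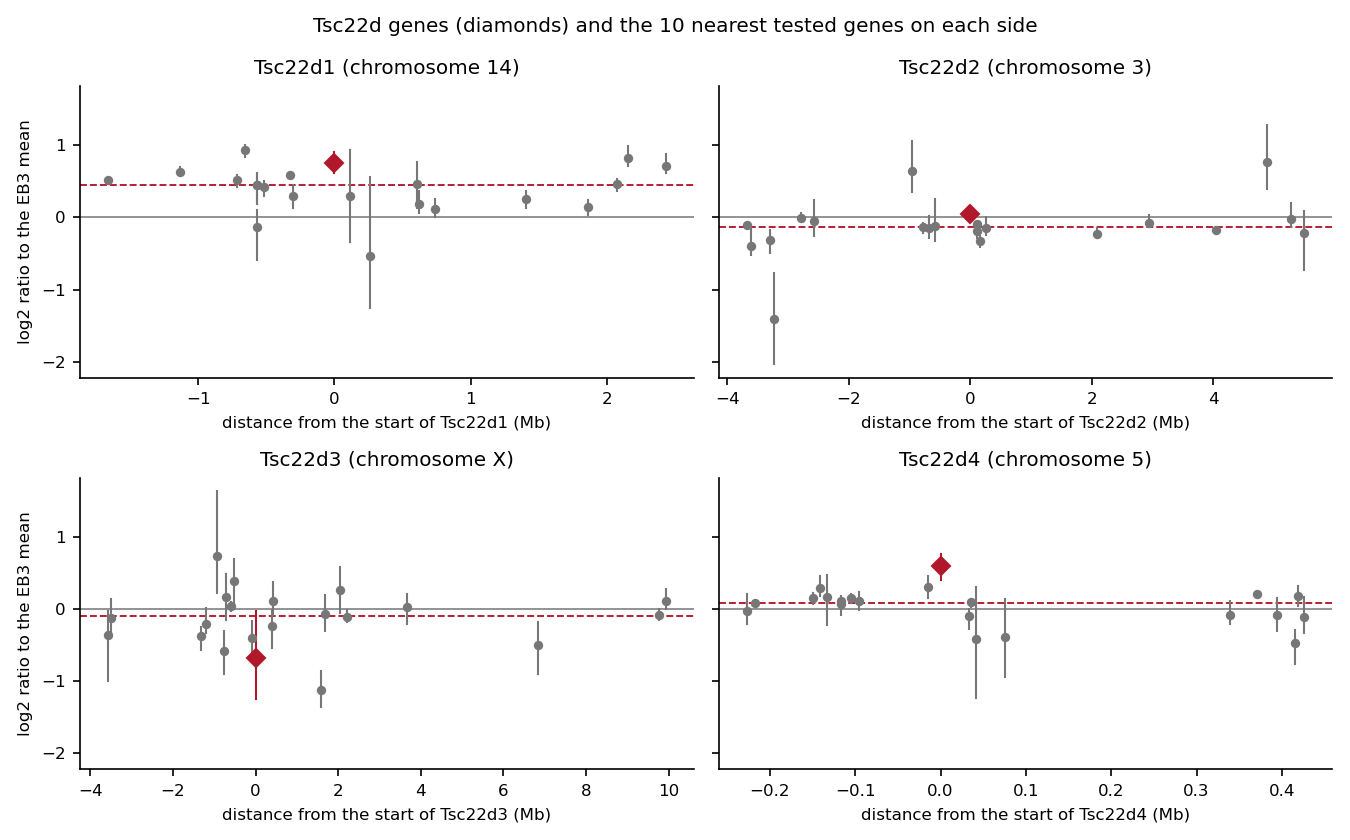
Log2 ratio of the Sim2 expressing clones to the EB3 mean, on the log2(RPKM + 0.5) scale, for each Tsc22d gene (red diamond) and its 10 nearest tested genes on each side (grey), against the distance in Mb from the start of the member; points are the mean and vertical lines the range of the 3 clones, and the dashed line is the median of the neighbours. The median is 0.45 around Tsc22d1 and lies between -0.14 and 0.09 around the other members.

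The other neighbourhoods had medians closer to 0. Around Tsc22d4 the median was 0.17, 0.03 and 0.09 in A6, B8 and C4 across 0.660 Mb of chromosome 5, against 0.14, -0.13 and -0.04 for the EB3 cultures each set against the others, and Tsc22d4 ranked at 1 of 21. It stood above that median by 0.43, 0.73 and 0.30, more than Tsc22d1 did above its own in each clone. Its nearest tested genes were 6430598A04Rik (0.31 ± 0.15, limma adjusted p = 0.338) and 2010007H12Rik (-0.09 ± 0.16, limma adjusted p = 0.810).

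Around Tsc22d2 the median was -0.12, -0.14 and -0.15 in the clones across 9.19 Mb of chromosome 3, all below the medians of the EB3 cultures (-0.10, 0.05 and 0.02), and 2 of the 20 neighbours were above 0 on average. Its nearest tested genes were Pfn2, which encodes the actin-binding protein profilin 2 (-0.12 ± 0.18, limma adjusted p = 0.765), and Serp1, a stress-associated protein of the endoplasmic reticulum (-0.19 ± 0.11, limma adjusted p = 0.396). Around Tsc22d3 the median was -0.12, -0.01 and -0.12 across 13.5 Mb of chromosome X, within the range of the EB3 cultures (-0.26, 0.07 and 0.17), and Tsc22d3 ranked at 20 of 21. Nxt2, a factor of mRNA export, was the neighbour below it and passed the threshold, at 4.02 ± 0.798 and 9.35 ± 1.41 RPKM (SD, n = 3 each; -1.13 ± 0.17, limma adjusted p = 0.0383), and it too lost the call under those alternatives. The nearest tested genes of Tsc22d3 were Prps1, an enzyme of nucleotide synthesis, at 89.3 ± 17.3 and 117 ± 17.9 RPKM (-0.40 ± 0.16, limma adjusted p = 0.256), and Psmd10, a proteasome chaperone (-0.24 ± 0.14, limma adjusted p = 0.425).

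The levels of the members were compared across the 6 libraries, which share their groups, so that any pair of genes that differs between groups is correlated. Pearson's r on log2(RPKM + 0.5) was 0.95 between Tsc22d1 and Tsc22d4, -0.54 between Tsc22d1 and Tsc22d3, and 0.14 between Tsc22d1 and Tsc22d2 (n = 6). The genes most like Tsc22d1 by this measure were Fam83h on chromosome 15, Jmjd5 on chromosome 7 and Fam160b2 on chromosome 14 (r of at least 0.997, n = 6). For Tsc22d4 they were Pygb, Actr1b and Agtrap (r of at least 0.995), for Tsc22d2 Tmppe, Ogfod1 and Smarca5-ps (at least 0.996), and for Tsc22d3 Pmel, Marcks and Fam193b (at least 0.986). Fam83h was at 29.2, 32.9 and 27.9 RPKM in A6, B8 and C4 and at 18.9, 18.6 and 18.5 RPKM in the EB3 cultures. Tmppe, like Tsc22d2, was lowest in EB3-0 (8.53 RPKM against 12.2 to 14.6 RPKM in the other libraries). An r over 0.95 was reached by 189 tested genes for Tsc22d1, 169 for Tsc22d4, 367 for Tsc22d2 and 20 for Tsc22d3, as 6 libraries allow many such pairs.

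EB3-0 differed from the other EB3 cultures by an amount that depended on cDNA length, and this bears on the members because their cDNAs run from 2148 to 8829 bases. Tsc22d2 was lower in EB3-0 by a log2 ratio of -0.59, and the median of 541 tested genes of like length (within a factor of 1.25) was -0.54. Tsc22d4 (0.26 against a median of 0.07) and Tsc22d3 (0.22 against 0.10) were higher in EB3-0. Tsc22d1 was at -0.01 where genes of its length had a median of -0.20. Against EB3-1 and EB3-2 alone, the clones differed by 0.75 for Tsc22d1, 0.68 for Tsc22d4, -0.15 for Tsc22d2 and -0.61 for Tsc22d3. With EB3-1 and EB3-2 counted as 1 library, the Tsc22d1 difference was 0.75 ± 0.12 and 0 of the 4 members were called, as 6 tested genes were (0.0517%).

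**Figure D3:**
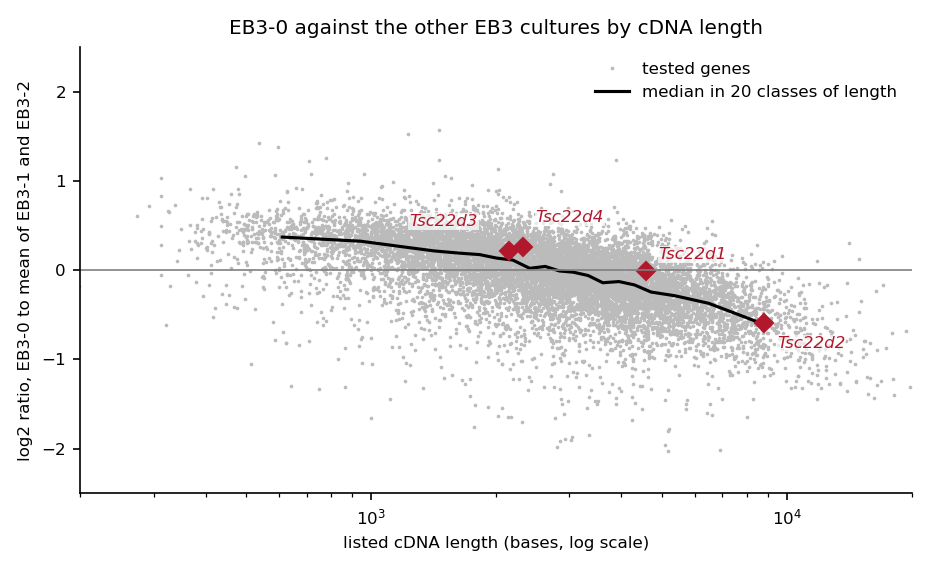
Log2 ratio of EB3-0 to the mean of EB3-1 and EB3-2, on the log2(RPKM + 0.5) scale, against the listed cDNA length (log axis) for the tested genes (grey), with the median in 20 classes of length (black line) and the Tsc22d genes (red diamonds); 32 genes lie outside the axes. Tsc22d2 sits on the line at -0.59, while Tsc22d1 at -0.01 and Tsc22d4 at 0.26 sit above it.

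Genes of the pathways around the family were counted from 5 lists. In the list of NRBP1, the WNK kinases and their transporters, 11 of 16 genes were tested and 0 passed the limma threshold (2 at an unadjusted p under 0.05), where 0.699% of all tested genes passed and 17.8% had such an unadjusted p. The median log2 fold change was 0.10, and 3 genes did not overlap between groups (26.1% of all tested genes did not). Cul3, the scaffold of the ligase that degrades WNK kinases, was at 42.4 ± 0.760 and 52.8 ± 5.32 RPKM (-0.31 ± 0.10, limma adjusted p = 0.163). Cab39, which activates kinases downstream of WNK, was at 37.5 ± 3.52 and 38.9 ± 5.53 RPKM (-0.05 ± 0.13, limma adjusted p = 0.878). Nrbp1, the partner itself, was at 36.1 ± 5.93 and 29.7 ± 3.30 RPKM (0.27 ± 0.14, limma adjusted p = 0.347), and Wnk1 at 29.5 to 35.2 RPKM in the clones and 20.6 to 39.9 RPKM in the EB3 cultures (0.03 ± 0.23, limma adjusted p = 0.963).

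Of 20 genes of the TGF-beta pathway, which induces Tsc22d1, 16 were tested. The limma threshold was passed by 0 of them (0.699% of all tested genes), and 1 had an unadjusted p under 0.05 (17.8%). The list had a median of 0.04 and 2 genes that did not overlap (26.1% of all tested genes did not). Tgif1, a corepressor of SMAD proteins, was at 137 ± 5.28 and 166 ± 12.5 RPKM (-0.28 ± 0.09, limma adjusted p = 0.165). Junb, an early TGF-beta target, was at 45.3 ± 2.97 and 44.0 ± 1.43 RPKM (0.04 ± 0.09, limma adjusted p = 0.853). The ligand Tgfb1 was at 5.75 ± 2.26 and 4.55 ± 0.608 RPKM (0.25 ± 0.25, limma adjusted p = 0.655).

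The glucocorticoid list holds the receptor Nr3c1 and genes it induces, and also Nr3c2 and Fkbp4. Of its 16 genes 12 were tested, and 1 was called higher and 0 lower, where 0.699% of all tested genes were called. That gene was Zfp36, which encodes an mRNA decay factor. It was at 21.1, 19.4 and 19.0 RPKM in A6, B8 and C4 and at 13.5, 12.8 and 12.9 RPKM in the EB3 cultures (0.59 ± 0.10, limma adjusted p = 0.0439). It was not called with no filter on low values, with libraries centred on their medians, with EB3-1 and EB3-2 averaged, or with A6, B8, C4, EB3-1 or EB3-2 left out. Mt1 (669 ± 27.9 and 460 ± 80.3 RPKM, 0.55 ± 0.13, limma adjusted p = 0.101) and Mt2 (940 ± 32.4 and 658 ± 123 RPKM, 0.53 ± 0.14, limma adjusted p = 0.121), which encode metallothioneins, did not overlap between groups. The median of the list was 0.06, and 5 of its genes had an unadjusted limma p under 0.05 (17.8% of all tested genes). Groups did not overlap for 5 genes, 4 of them higher in the clones (26.1% and 12.7% of all tested genes). Nr3c1 was at 4.92 ± 0.229 and 4.06 ± 1.02 RPKM (0.27 ± 0.19, limma adjusted p = 0.492). Tsc22d3 itself had the lower mean in the clones.

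All 14 genes of the FOXO list, FOXO factors and genes they activate, were tested. In the limma fit 0 passed the threshold (0.699% of all tested genes) and 3 had an unadjusted p under 0.05 (17.8%). The median was 0.27, and 6 genes did not overlap between groups, 5 of them higher in the clones (26.1% and 12.7% of all tested genes). Foxo4 was at 45.5 ± 1.90 and 35.5 ± 1.35 RPKM (0.35 ± 0.08, limma adjusted p = 0.0975). Txnip, an inhibitor of thioredoxin, was at 92.1 ± 4.49 and 81.6 ± 4.31 RPKM (0.17 ± 0.09, limma adjusted p = 0.332), and Gadd45a, a growth arrest gene, at 85.0 ± 2.97 and 85.3 ± 1.02 RPKM (-0.01 ± 0.08, limma adjusted p = 0.980).

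The partner list holds 14 genes whose proteins bind a member of the family, 5 of them also on the lists above, and all were tested. None passed the threshold in the limma fit (0.699% of all tested genes), and 2 had an unadjusted p under 0.05 (17.8%). The median of the list was 0.18, and 3 genes did not overlap between groups (26.1% of all tested genes did not). Tpt1, which encodes fortilin, a partner of the Tsc22d1 protein, is also among the neighbours of Tsc22d1. It was at 220, 294 and 281 RPKM in A6, B8 and C4 and at 232, 176 and 174 RPKM in the EB3 cultures (0.45 ± 0.15). Akt1, a partner of the Tsc22d4 protein, was at 23.5 ± 2.34 and 18.3 ± 1.99 RPKM (0.36 ± 0.12, limma adjusted p = 0.182).

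**Figure D4:**
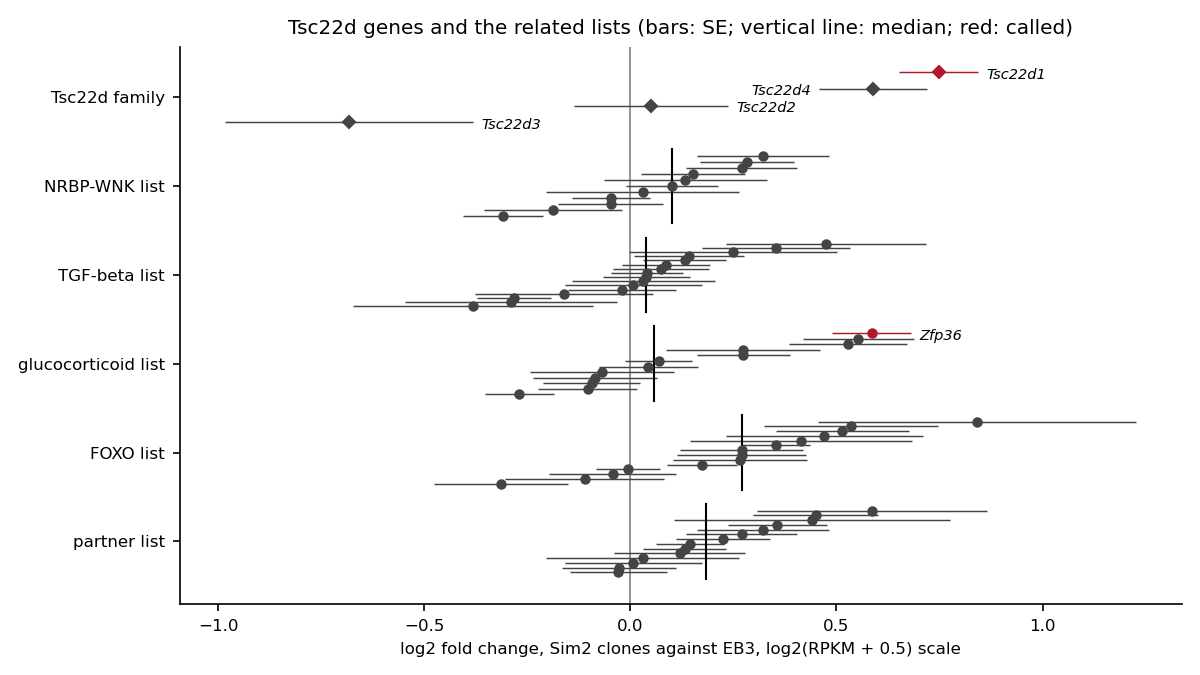
Log2 fold change between the Sim2 expressing clones and EB3, on the log2(RPKM + 0.5) scale, with its SE, for the 4 Tsc22d genes (diamonds) and the tested genes of the 5 related lists (circles); black vertical lines are the medians of the lists and red marks genes past the limma threshold. Tsc22d1 (0.75) and, among the lists, Zfp36 (0.59) are the genes in red. The Tsc22d genes were chosen with this contrast known, so the red of Tsc22d1 is a description and not a test.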

How the data were processed

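Messenger RNA of 3 Sim2 expressing clones and 3 EB3 cultures was sequenced in paired reads of 100 bases. The authors mapped the reads to mm9 with BWA at default parameters, computed exon coverage per gene with a custom pipeline and deposited RPKM values. The authors' own comparison of the groups used edgeR. The aligner's version, the version of the RefSeq annotation, the use of strand and the treatment of reads with several positions are not given in the sources used here. The deposited table lists 22602 genes, and 0 columns of values were left unused.

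RPKM times cDNA length gave whole reads for 100% of values (tolerance 0.01), and 1 read in a cDNA of 2000 bases was worth 0.0177 to 0.0199 RPKM. As both mates appear to be counted, intervals from such reads would cover counting error only. Values were transformed to log2(RPKM + 0.5), which understates changes of low genes. Genes with a mean of at least 1 RPKM were fitted with limma 3.58.1 (lmFit, eBayes with trend) in R 4.3.3, on 6 libraries without covariates, with Benjamini-Hochberg adjustment over 11595 genes and a threshold of 0.05. The code was tested on simulated data. No count test was run, as the deposited values are RPKM, from which the reads were only worked back. Other steps used Python 3.11.15.

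Groups were taken from the sample labels. The 4 genes, the lists, the tests and the rule for naming genes were chosen with earlier results of these data known. The rule named the members, Sim2 and Arnt, the nearest tested gene on each side, the 3 genes with the highest r for each member, and from each list the called genes (at most 5) and the 2 with the highest mean. Other genes named (among them Zc3h13, Slc25a30, Dgkh, Nxt2, Nrbp1, Wnk1, Tgfb1, Nr3c1, Foxo4 and Akt1) were picked after their values were seen, and 1 gene that the rule names is not reported here. List symbols were matched to the table, 1 of them, Hras, through a RefSeq synonym. Transcripts of an mm9 annotation gave exons and coding sequences.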

Additional observations from a re-analysis of the deposited data

How the results depend on the processing

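The fold changes of Tsc22d1, Tsc22d3 and Tsc22d4 kept their direction under every alternative run, with 0.67 to 0.81 for Tsc22d1, -0.40 to -1.01 for Tsc22d3 and 0.50 to 0.68 for Tsc22d4, all on the log2 scale; Tsc22d2 ran from -0.15 to 0.17. The share of Tsc22d1 was higher in the clones by 3.39 to 4.2 percentage points. The number of genes past the limma threshold, 81 as reported, was 23 with no filter on low values, 250 with the trend on cDNA length removed (2.16%, Tsc22d1 and Tsc22d4 among them), 6 with EB3-1 and EB3-2 averaged, and 6 to 694 with 1 library left out, the highest without EB3-0. Tsc22d1 was not past the threshold with no filter, with the average, or with A6, B8, C4, EB3-1 or EB3-2 left out. These fits had fewer libraries or more genes tested. The fit without EB3-0 also had fewer libraries, and there Tsc22d1 and Tsc22d4 were past the threshold, as 5.99% of all tested genes were. Why the call was lost was not tested.

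The median of the Tsc22d1 neighbours, 0.45 as reported, was 0.22 with no filter and 0.30 with 5 genes on each side; that of Tsc22d2 was -0.051 with no filter. That of Tsc22d3 turned sign, to 0.05 at most, with EB3-1 or EB3-2 left out or both averaged. Called genes of the glucocorticoid list, 1 as reported, were 0 with no filter, with libraries centred on their medians and with EB3-1 and EB3-2 averaged. They were 3 with the length trend removed (Mt1, Mt2 and Zfp36), where 2.16% of all tested genes were called. With 1 library left out they were 0 to 4, the highest without EB3-0 (Mt1, Mt2, Sgk1 and Zfp36). The other lists ran from 0 to 1 with 1 library left out, the 1 always without EB3-0 (Cul3, Tgfbr1, Foxo4 and Tpt1). Without EB3-0, 5.99% of all tested genes were called, and nothing is read from these counts. Sgk1, Cul3 and Tgfbr1 had the lower mean in the clones. The cause of these changes was not tested. No paired analysis was possible because the groups share no replicate names. Depth limits Tsc22d3 most, with 31 to 137 reads per library.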
